A study of Rattus norvegicus with 6 samples.

Results

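TE-RMSs, three-dimensional bundles of aligned astrocytes grown in collagen-coated microchannels to resemble the rostral migratory stream of the brain, held transcripts of 4 genes that were rare or missing in planar cultures of the same cells. The genes are Cym, Lrrc25, Evi2a and Spata48, the last under the label Spmip7 in the study. They were found by joining their Ensembl identifiers to names through the study's supplementary list of differential expression, and they are 4 of the 23940 genes in the deposited table. They were chosen because their counts were low in planar and raised in TE-RMS libraries, so the difference between conditions is described here and nothing is read from its test. The difference between runs is another contrast and was tested, but that these genes varied between runs was known from earlier results of these data, so the test is not independent evidence of it.

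The data came from 6 libraries of cortical astrocytes from Sprague-Dawley rat pups at postnatal day 0 to 1, used at passage 4, with 3 TE-RMS and 3 planar libraries. Planar astrocytes (labelled 2Dastro) were plated on collagen, and TE-RMS astrocytes (labelled TERMS) were placed in microchannel molds with collagen. Each of 3 runs, called July, September and October after their labels, used different animals and gave 1 library of each condition. Each TE-RMS library pooled many bundles that had been chosen for tight bundling and kept frozen in preservative, while planar wells were extracted fresh, so culture format, selection and storage cannot be told apart. The authors deposited an estimated count for each gene and library, and these summed to 70682593 for planar and 54601354 for TE-RMS in July. In September the sums were 70478784 and 77277336, and in October 56483332 and 64537115. Levels are CPM, the counts scaled to a common library size after TMM normalization, and a floor of 3 counts in a library stood for 0.0415 to 0.0529 CPM. Where 3 values are given in a row, they are those of the July, September and October runs. Intervals on single libraries are exact 95% Poisson intervals and cover counting error only.

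The 4 genes have little in common by known function. Cym encodes chymosin, an aspartic protease of the pepsin family known from the stomach of suckling mammals, where it curdles milk. Lrrc25 encodes a membrane protein with leucine-rich repeats that is known from myeloid cells and has been tied to the control of interferon and NF-kB signalling. Evi2a encodes a small membrane protein whose gene lies within an intron of the neurofibromin gene Nf1, and whose locus was described as a site of viral integration in myeloid leukaemia. Spata48 is a sperm-associated gene whose newer name refers to a microtubule inner protein of the sperm flagellum. In bulk libraries such as these, more cells that express a gene and more transcript per cell cannot be told apart.

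Promoter sequence was looked up because the genes moved together, and it is shown so that the 3 genes with an entry can be compared. The windows are the 250 bases before a start site in RefSeq on the GRCr8 build, which is another build than that of the counts, written 5′ to 3′ on the strand of the gene. Positions are counted back from the start site, with -1 as the last base of the window, and capitals mark the motifs found on either strand. The Spmip7 window has no capitals because none was found in it. The Cym window lies at chr2:197527308-197527557 on the minus strand, the Lrrc25 window at chr16:18847649-18847898 on the minus strand, and the first of 4 Spmip7 windows at chr14:90243837-90244086 on the plus strand. No window of Evi2a was shown.
Cym: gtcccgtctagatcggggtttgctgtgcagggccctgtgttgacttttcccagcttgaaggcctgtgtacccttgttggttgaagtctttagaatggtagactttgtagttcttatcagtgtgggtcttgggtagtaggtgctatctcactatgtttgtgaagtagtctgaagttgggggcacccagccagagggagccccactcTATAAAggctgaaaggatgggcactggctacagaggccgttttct
Lrrc25: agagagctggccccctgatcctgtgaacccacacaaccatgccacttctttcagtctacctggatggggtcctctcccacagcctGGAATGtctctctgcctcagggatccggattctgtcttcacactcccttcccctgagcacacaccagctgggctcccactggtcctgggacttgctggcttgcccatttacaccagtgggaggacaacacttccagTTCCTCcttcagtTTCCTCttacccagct
Spmip7: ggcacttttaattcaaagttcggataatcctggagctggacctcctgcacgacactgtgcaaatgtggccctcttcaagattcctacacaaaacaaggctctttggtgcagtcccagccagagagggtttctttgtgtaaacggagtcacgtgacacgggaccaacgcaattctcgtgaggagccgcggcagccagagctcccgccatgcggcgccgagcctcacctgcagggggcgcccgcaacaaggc

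Searches were made for TGACNNNGC, the core of the antioxidant response element, GAGGAA, bound by the myeloid factor PU.1, TGANTCA, bound by AP-1, and GGAATG, bound by TEAD factors. The Lrrc25 window held GAGGAA on the reverse strand at -29 to -24 and again at -16 to -11, and GGAATG at -165 to -160. GAGGAA was found in 23.3% and GGAATG in 12.1% of 33469 windows of the same length. The Cym window and the first Spmip7 window held none of these 4 motifs. TATAAA in the Cym window, at -45 to -40, was picked out after the sequence was seen and was present in 12.9% of windows. Of the other Spmip7 windows, the second held GAGGAA on each strand, the third TGACNNNGC and GGAATG, and the fourth GAGGAA and GGAATG, which overlapped. TGACNNNGC was present in 10.1% and TGANTCA in 6.34% of all windows. No motif was shared by the 3 windows printed. A match describes the letters in a window and nothing more.

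Cym, gene ENSRNOG00000018236 on chromosome 2 of mRatBN7.2 from 194828739 to 194839096 on the minus strand, had 0 counts in the July planar library, 3 in September and 0 in October. It had 115, 641 and 58 counts in the TE-RMS libraries in the same order, which are 2.03, 8.91 and 0.914 CPM. All 3 TE-RMS libraries lay above all 3 planar libraries, as they did for 13.2% of the 16331 genes tested. For each of the 4 genes TE-RMS was above planar within every run, which held for 22.5% of tested genes. The planar counts were at or below the floor of 3 counts. Within the September run Cym was 215-fold higher in TE-RMS, with an exact 95% interval of 73.2 to 1050 that covers counting error. With the floor of 3 counts put in place of 0 planar counts, Cym was 45.7-fold higher in July and 18.4-fold higher in October. These values are not bounds, since the 95% interval on 0 counts reaches 3.69 counts. The mean was 0.0138 ± 0.0239 CPM for planar and 3.95 ± 4.33 CPM for TE-RMS (SD, n = 3 each). The TE-RMS spread exceeded its own mean, since 78.5% of all Cym counts came from the September TE-RMS library.

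Lrrc25, gene ENSRNOG00000022565 on chromosome 16 from 18806890 to 18813671 on the minus strand, was counted 3 times in July, 13 times in September and 1 time in October in planar cultures. The TE-RMS libraries had 125, 697 and 228 counts, or 2.20, 9.69 and 3.59 CPM, against 0.0443, 0.180 and 0.0165 CPM in planar libraries. The conditions did not overlap. Lrrc25 was 49.7-fold higher in TE-RMS within July (16.6 to 244), 53.9-fold within September (31.3 to 102) and 217-fold within October (38.6 to 8610). These counting intervals overlapped one another, and the widest rested on a single planar count. The September TE-RMS library held 65.3% of its counts.

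Evi2a, gene ENSRNOG00000022764 on chromosome 10 from 64485200 to 64489843 on the minus strand, had 1, 72 and 17 counts in the planar libraries, or 0.0148, 0.995 and 0.281 CPM. The TE-RMS libraries had 25, 2917 and 827 counts, or 0.441, 40.6 and 13.0 CPM. The conditions overlapped, because the July TE-RMS library lay below the September planar library. Within each run Evi2a was nonetheless higher in TE-RMS, by 29.8-fold in July (4.88 to 1220), 40.8-fold in September (32.3 to 52.2) and 46.3-fold in October (28.8 to 79.9). These intervals overlapped one another, while the levels differed widely between runs. The September TE-RMS library held 75.6% of the Evi2a counts and the July TE-RMS library 0.648%.

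Spata48, gene ENSRNOG00000037621 on chromosome 14 from 86030655 to 86085644 on the plus strand, was not missing from planar cultures. It had 63, 156 and 52 counts there, or 0.931, 2.16 and 0.860 CPM, each above the floor. The TE-RMS libraries had 377, 3273 and 1240 counts, or 6.65, 45.5 and 19.5 CPM, with no overlap between conditions. The difference was 7.14-fold in July (5.46 to 9.48), 21.1-fold in September (18.0 to 24.9) and 22.7-fold in October (17.2 to 30.6). The July interval lay below the others, but the intervals hold no spread between animals or cultures, so whether the ratio differed between runs was not tested. Spata48 was thus raised from a low level that was measurable in every planar library, unlike Cym.

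**Figure D1:**
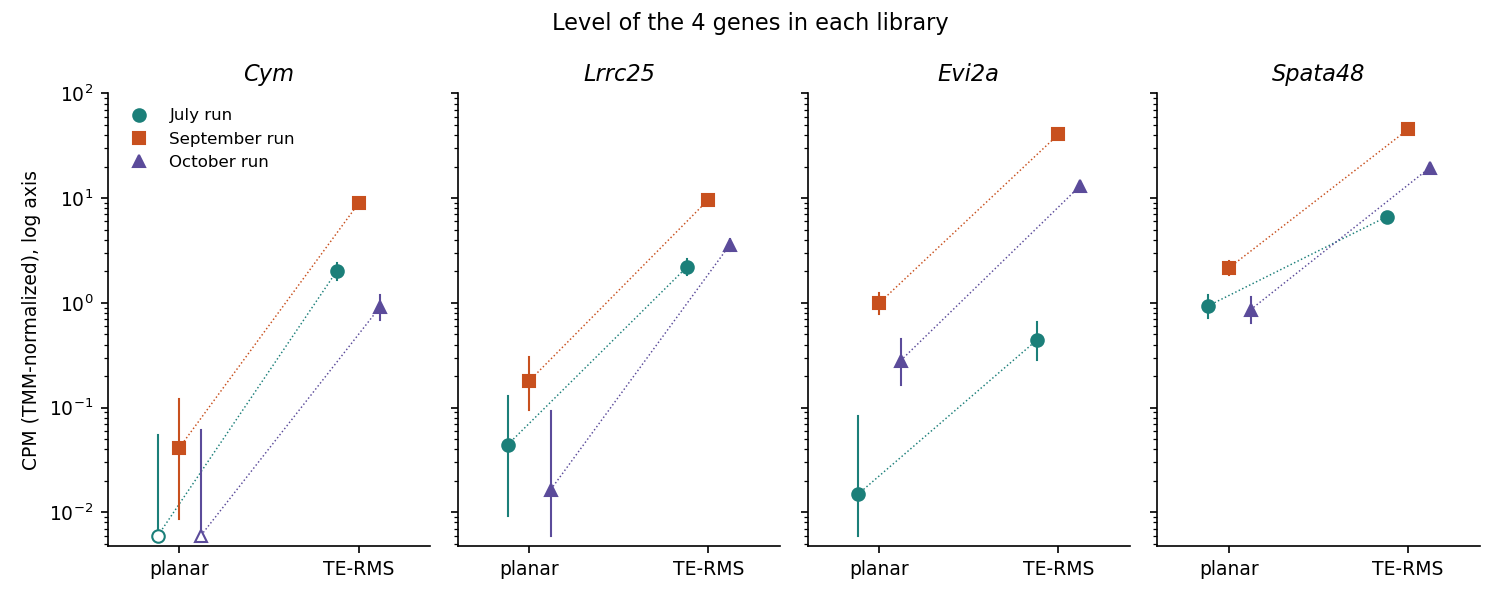
Level of Cym, Lrrc25, Evi2a and Spata48 in each library, in CPM on a log axis, by condition, with 1 symbol per run, vertical lines for exact 95% Poisson intervals cut at the lower edge of the panel and dotted lines joining the libraries of a run. Open symbols at the lower edge are libraries with 0 counts, and the September run is the highest of its condition in every panel.

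**Figure D2:**
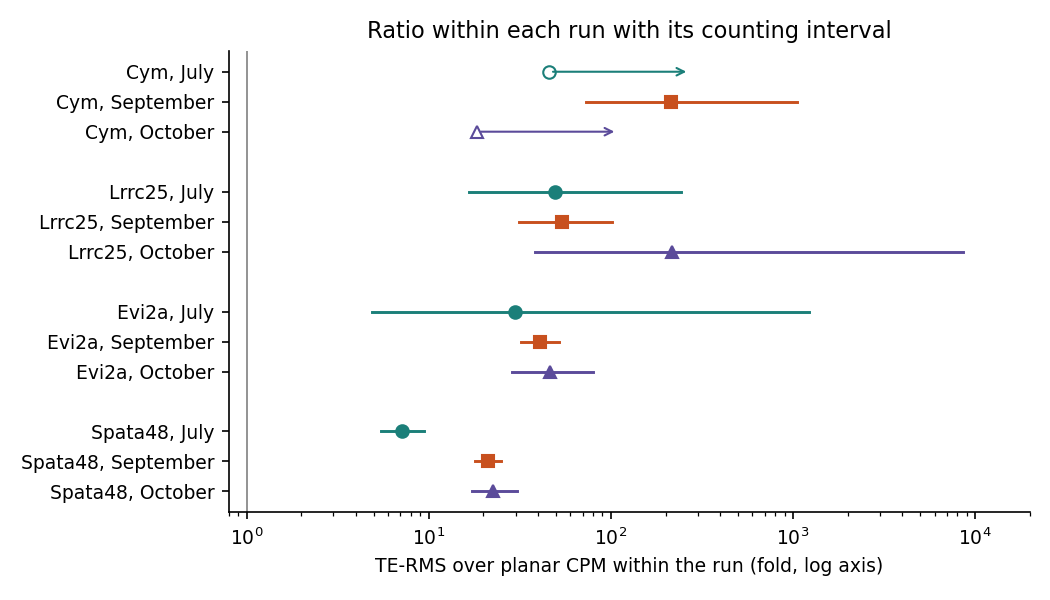
TE-RMS over planar CPM within each run on a log axis, with exact 95% counting intervals as horizontal lines. Open symbols with arrows are ratios with the floor of 3 counts in place of 0 planar counts, and are not exact bounds. All ratios lie above 1, and the July ratio of Spata48, at 7.14, is the lowest.

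In the fit across all genes, with the run as a block, the log2 fold change was 8.21 (standard error 1.12) for Cym and 6.13 (0.82) for Lrrc25. It was 5.37 (0.41) for Evi2a and 3.93 (0.39) for Spata48. By log2 fold change Cym was number 4 from the top of 16331 tested genes, Lrrc25 41, Evi2a 74 and Spata48 261. With edgeR's quasi-likelihood test all 4 were called higher at an adjusted p of 0.05, as were 9.36% of tested genes, with 9.28% called lower, and nothing is read from this because the genes were chosen on the same contrast. The value for Cym depended on the prior count, and with a prior count of 2 it was 6.12.

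Limits on the counts were drawn around those of Cym, Lrrc25 and Spata48, so these genes meet them by construction. Cym was the single gene with at most 3 counts in each planar and at least 50 in each TE-RMS library, and 1 gene met the mirrored rule. With limits of 20 and 100 counts, Lrrc25 was the single gene, against 4 in the mirrored direction, which include the kinase gene Aatk, the BMP inhibitor Nog and the synaptotagmin Syt12. With limits of 200 and 300 counts there were 17 genes, Spata48 among them, beside the glutamate transporter Slc1a2, the cystine transporter Slc7a11 and the thyroid hormone transporter Slco1c1, against 74 mirrored. Evi2a met none of these rules, because of its 72 counts in the September planar library under the stricter limits and its 25 counts in the July TE-RMS library under all of them. The limits were set after the counts were seen and describe these libraries. How rare such patterns are was therefore not tested.

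The counts of all 4 genes were concentrated in the September run, while the fold changes of Lrrc25, Evi2a and Spata48 were not. Without that run their log2 fold changes were 6.47, 5.28 and 3.67. For Cym, the planar libraries of the other runs hold 0 counts. With the floor of 3 counts in their place, the values were 45.7-fold in July and 18.4-fold in October. The September TE-RMS library held 7528 of their counts together, 69.0% of the total, against 21.6% in the October and 5.89% in the July TE-RMS library. September was also the highest planar library for each of the 4, although for Cym that rested on 3 counts. September was the highest planar library for 29.5% of tested genes, and the highest TE-RMS library for 32% of them and for 46.7% of those called higher in TE-RMS. September was highest in both conditions for 14.8% of all tested genes and for 29.6% of the 1528 genes called higher in TE-RMS. On the log2 CPM scale, the September value exceeded the mean of the other runs by 3.11 in planar and 4.03 in TE-RMS libraries for Evi2a, the 99th and 99.3rd percentiles of tested genes. The same excess was 1.24 and 2.68 for Cym (percentiles 91.9 and 96.2) and 1.82 and 1.77 for Lrrc25 (95.2 and 92.2). For Spata48 it was 1.24 and 1.99 (92.1 and 93.2). Among TE-RMS libraries, Evi2a in September was 92.0-fold above July (62.2 to 142, counting interval) and 3.11-fold above October (2.88 to 3.37). Cym was 4.39-fold above July (3.60 to 5.41) and 9.75-fold above October (7.45 to 13.0), so that its second library was July, whereas October was second for the others.

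The run terms were tested jointly for every gene, and edgeR's quasi-likelihood test called 3.21% of tested genes at an adjusted p of 0.05. Evi2a passed at an adjusted p of 0.000166 and ranked 16 by its statistic. Its September level exceeded that of July by 6.46 on the log2 scale (standard error 0.55, adjusted p = 9.18e-05 by edgeR), and its October level by 4.75 (0.54, adjusted p = 0.00078 by edgeR). September and October differed by 1.71 (0.39, adjusted p = 0.0609 by edgeR), which did not pass. Spata48 missed the joint threshold at an adjusted p of 0.0523 by edgeR, and it fell on either side of 0.05 under other settings, at 0.019 without the July, 0.034 without the October and 0.795 without the September run. Its September level exceeded that of July by 1.98 (standard error 0.45, adjusted p = 0.0454 by edgeR). September over October, at 1.25 (0.42, adjusted p = 0.216 by edgeR), and October over July, at 0.73 (0.44, adjusted p = 0.568 by edgeR), did not pass. Cym, at an adjusted p of 0.208, and Lrrc25, at 0.289, did not pass edgeR's joint test, and their standard errors for September over July were 1.11 and 0.88 around log2 differences of 2.48 and 2.12. Run accounted for 47.7% of the variance of log2 CPM of Evi2a over the 6 libraries and condition for 50.3%. For Cym the run accounted for 9.01%, for Lrrc25 8.41% and for Spata48 14.6%.

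Lrrc25 overlaps a neighbouring gene. Gdf15, a stress-induced cytokine of the TGF-beta superfamily, lies on the opposite strand from 18805239 to 18808055, so that 1166 bases are shared by the annotated spans of the 2 genes. The kit was non-stranded, and reads from the shared bases cannot be assigned to a strand. Whether the shared bases are exonic in both genes was not examined, and counts made against transcripts can be shared only there. Gdf15 counts were 67 in planar and 244 in TE-RMS in July, 333 and 4429 in September, and 77 and 819 in October. It was thus highest in September in both conditions too, with a log2 fold change of 3.10 (standard error 0.35) and an adjusted p of 0.00305 for the run terms by edgeR's quasi-likelihood test. Lrrc25 counts came to 4.48%, 3.90% and 1.30% of Gdf15 counts in the planar libraries, and to 51.2%, 15.7% and 27.8% in the TE-RMS libraries. The ratio of the 2 genes was therefore not the same in every library, and it was higher in each TE-RMS library than in each planar library. How many Lrrc25 counts came from the shared bases was not tested. Gdf15 was looked at after its position and values were seen.

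**Figure D3:**
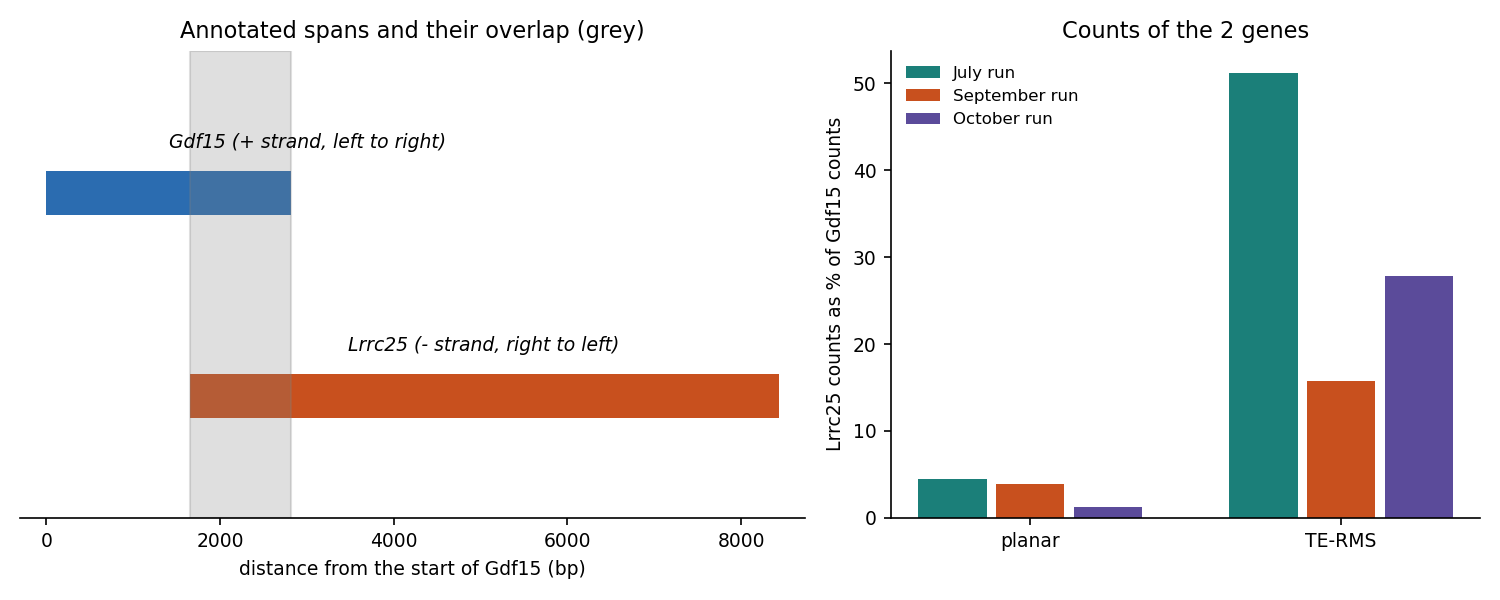
Left, annotated spans of Gdf15 and Lrrc25 to scale, in bases from the start of Gdf15, with the 1166 shared bases in grey. Right, Lrrc25 counts as a percentage of Gdf15 counts in each library by condition and run, which run from 1.30% to 4.48% in planar and from 15.7% to 51.2% in TE-RMS libraries.

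The remaining genes also have neighbours. In RefSeq's gene order on GRCr8, Evi2a lies within Nf1, together with Omg and Evi2b, and Spata48 overlaps Zpbp, a gene of sperm binding to the egg coat. Neither Nf1, Omg, Evi2b nor Zpbp could be paired with an identifier, so their counts are not analysed here by name. Cym overlapped no annotated gene.

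Lrrc25 and Evi2a are known from myeloid cells, and the myeloid markers were read beside them. Of 35 markers of microglia and other myeloid cells, 4 could be paired with an identifier, and all of these come from the part of the study's list that was at hand, the genes with the smallest p-values. In that part 747 of the 1503 genes with a symbol were called higher and 752 lower, so that being called follows from how it was cut. Cd68, a lysosomal protein of macrophages, was higher in TE-RMS. Tmem119, Runx1 and Arhgap30 were lower. The median log2 fold change of the 4 markers was -1.40, beside -0.12 over all tested genes and -0.76 over the 1503 genes with a symbol. Their summed CPM was 54.8, 65.3 and 77.9 across the planar runs and 28.7, 101 and 29.4 across the TE-RMS runs, and none of the 4 had a library at 0. Cd68 was the highest of the 4 in the September TE-RMS library alone, at 85.4 CPM, and the lowest of them in the July and October planar and the October TE-RMS libraries. Defining markers such as Ptprc, Csf1r, Aif1 and Itgam are not analysed here by name. The part of myeloid cells in the levels of Lrrc25 and Evi2a was not tested.

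Cd68 was highest in September in both conditions. It had planar values of 1.30, 15.6 and 0.778 CPM and TE-RMS values of 8.69, 85.4 and 3.75 CPM, with a log2 fold change of 2.49 (standard error 0.25). Its run terms passed at an adjusted p of 3.53e-05 in edgeR's quasi-likelihood test. Tmem119, a membrane protein of microglia that bone-forming cells also express, had planar values of 24.6, 23.2 and 26.5 CPM and TE-RMS values of 5.26, 5.60 and 9.14 CPM. It had no September peak in either condition, and its log2 fold change was opposite in sign to that of Cd68. Runx1 was lowest in September in both conditions, with planar values of 9.27, 6.5 and 22.0 CPM and TE-RMS values of 3.47, 2.03 and 7.7 CPM. Arhgap30 had no September peak in either condition.

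Of 12 neuronal markers 2 were paired, from the same list with 747 of 1503 genes called higher, and both were higher in TE-RMS, but of these Snap25 alone peaked in September. Snap25, a protein of synaptic vesicle fusion, had 0.0148, 3.92 and 0.0496 CPM across planar runs and 0.459, 60.8 and 3.50 across TE-RMS runs, and its run terms passed at an adjusted p of 4.35e-05 by edgeR's quasi-likelihood test. Map2, a dendritic microtubule protein, had planar values of 12.7, 3.70 and 5.89 CPM and TE-RMS values of 34.5, 30.5 and 14.6 CPM, with no September peak. The summed level of both was 12.7, 7.63 and 5.94 CPM across planar runs and 34.9, 91.3 and 18.1 across TE-RMS runs. Without the September run Snap25 was no longer called, although it was higher in TE-RMS within every run. The part of neuronal transcripts in the September levels of the 4 genes was not tested.

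**Figure D4:**
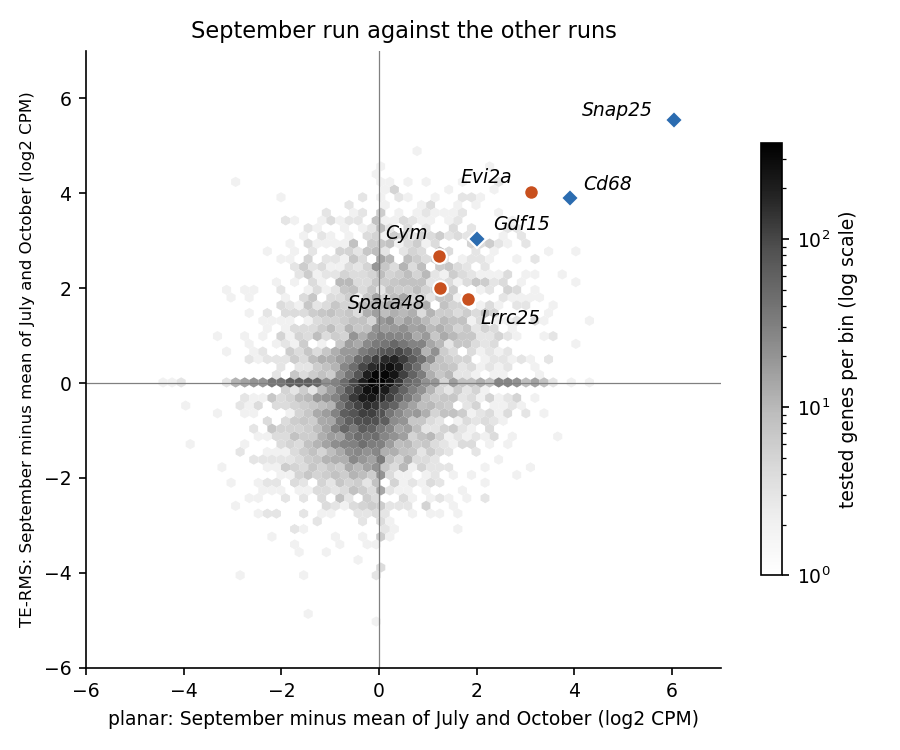
Difference on the log2 CPM scale between the September library and the mean of the July and October libraries, in planar (horizontal) and TE-RMS cultures (vertical), with all 16331 tested genes as grey bins on a log colour scale, the 4 genes as circles and Cd68, Snap25 and Gdf15 as diamonds. Evi2a lies at 3.11 and 4.03, and the 3 diamonds were chosen after their values were seen, while the other myeloid and neuronal markers, which did not peak in September in both conditions, are not labelled.

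Markers of the labelled cell type, astrocytes, were read in the same way. Directions of change of genes from a list cut by p-value cannot show which cells were present. Of 20 astrocyte markers 11 were paired, 10 of them higher in TE-RMS and 1, the growth factor receptor gene Fgfr3, lower, with a median log2 fold change of 1.80. Slc1a2 had planar values of 0.414, 1.33 and 1.03 CPM and TE-RMS values of 7.44, 13.0 and 20.8 CPM, a step from low planar levels like that of Spata48, with September the highest planar library but October the highest TE-RMS library. Apoe, the most abundant of the 11, a lipid carrier, was lowest in September in both conditions. The summed level of the 11 was 2780, 1930 and 3230 CPM across planar runs and 9730, 5570 and 10100 across TE-RMS runs. Most of this was Apoe, with 1780, 1130 and 2200 CPM across planar runs and 6760, 3590 and 7650 across TE-RMS runs. Of 12 markers of fibroblasts, pericytes and smooth muscle 7 were paired and all were lower in TE-RMS. Their summed level was 7250, 1370 and 2400 CPM across planar runs and 710, 314 and 360 across TE-RMS runs. The call of Thy1 was lost without the September and without the October run, although Thy1 was lower in TE-RMS within every run. Of 18 markers of the oligodendrocyte lineage 2 were paired, Mal and Cspg4, both lower. Of 8 endothelial markers 0 were paired. Without the July run the call of Mal was lost, although Mal was lower in TE-RMS within every run. Gfap, Aqp4 and Aldh1l1 are not analysed here by name, and all these genes, too, come from the part of the study's list with the smallest p-values, in which 747 of 1503 genes were called higher and 752 lower.

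Other genes of the pathways that the 4 are known from were paired in part, again from the list in which 747 of 1503 genes were called higher and 752 lower. Of 9 aspartic proteases of the pepsin family only Cym itself was, so chymosin cannot be set beside its relatives. Of 30 lysosomal hydrolases and cathepsins 13 were, 11 higher and 2 lower in TE-RMS, with a median log2 fold change of 0.97. The 11 include Cd68 and Grn, which are neither hydrolases nor cathepsins, and Cd68 is counted among the myeloid markers too. Ctsb, a cysteine protease, was higher with a log2 fold change of 1.52 (standard error 0.18), while Ctsl and Ctsz, also cysteine proteases, were lower at -1.35 (0.18) and -1.07 (0.18). Of 32 interferon and nucleic acid sensing genes 7 were paired, 6 higher and 1 lower, with a median of 1.39. Tlr3, a receptor for double-stranded RNA, had a log2 fold change of 1.53 (standard error 0.27), and its run terms passed at an adjusted p of 0.00596 in edgeR's quasi-likelihood test, with 5.27, 28.3 and 21.3 CPM in the TE-RMS libraries. Without the October run the calls of Gbp2 and Mx2, both interferon-induced GTPases, were lost, although both were higher in TE-RMS within every run. Bst2, an antiviral membrane protein, was lower at -1.82 (0.41).

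Sperm and axoneme genes, chosen by the start of their symbols, numbered 5 with Spata48, all from the list in which 747 of 1503 genes were called higher and 752 lower. Cfap97 at a log2 fold change of 1.27 (standard error 0.17) and Spata1 at 1.27 (0.28) were higher in TE-RMS beside it. Cfap100 was lower at -2.41 (0.42) and Tektip1, a tektin bundle protein, at -4.29 (1.34). Without the October run Tektip1 was not called, although it was lower in TE-RMS within every run. Leaving out Spata48, which was chosen for its rise, 2 of the 4 others were thus higher and 2 lower.

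**Figure D5:**
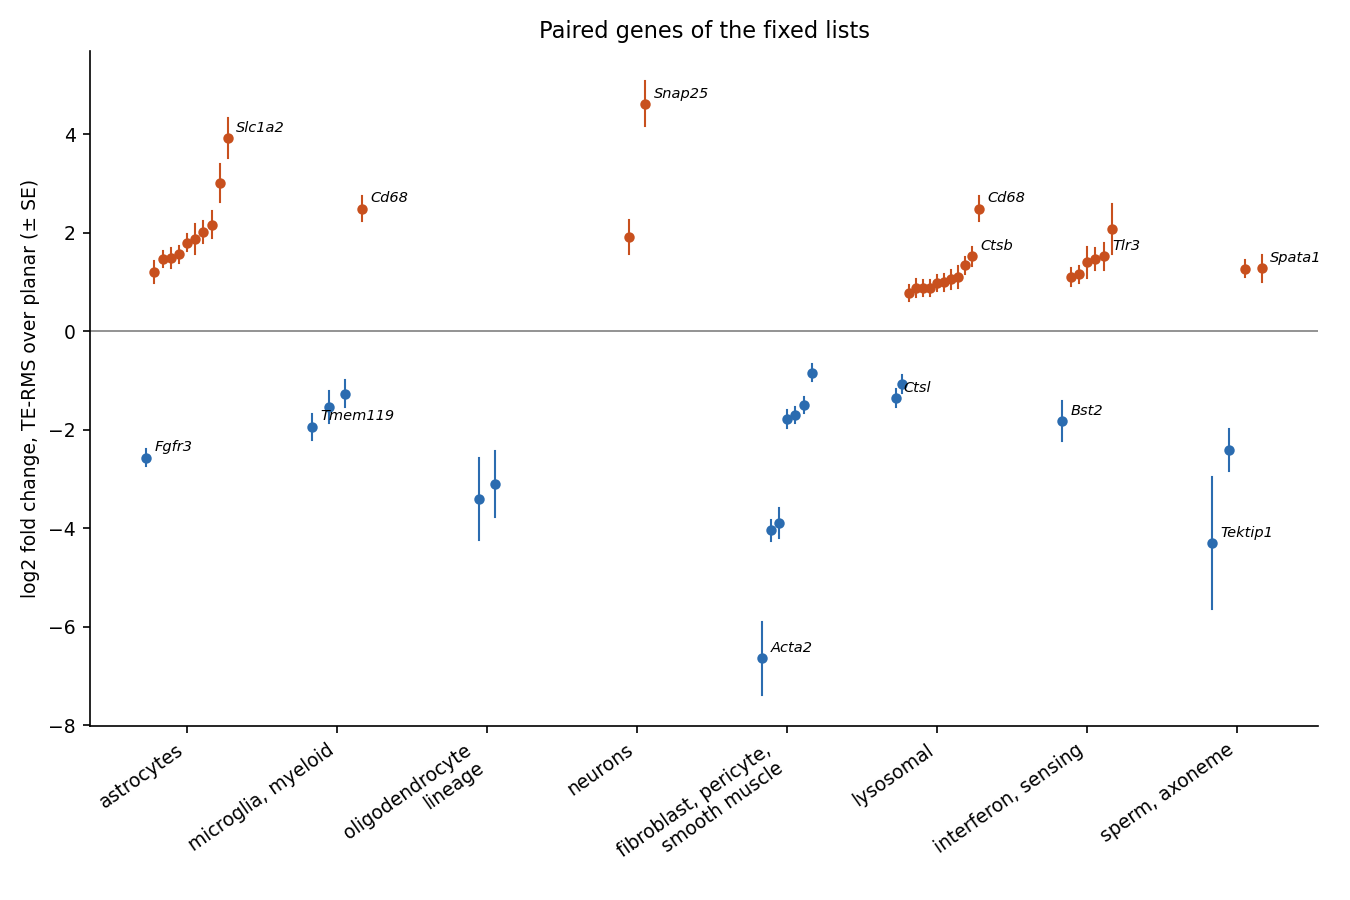
Log2 fold change, TE-RMS over planar, with its standard error, for the paired genes of 8 lists other than Cym, Lrrc25, Evi2a and Spata48. Orange genes are higher and blue genes lower in TE-RMS, and the myeloid list lies on both sides of 0, from -1.94 for Tmem119 to 2.49 for Cd68.

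Among one another, the 4 genes correlated across the 6 libraries with Pearson r of 0.783 to 0.982 on the log2 CPM scale. The difference between conditions largely fixes this for Cym, Lrrc25 and Spata48, with 89.3%, 90.7% and 82.2% of their variance. For Evi2a condition accounted for 50.3% and run for 47.7%, so its correlations also hold the pattern between runs. With the condition means taken out, r ran from 0.488 for Cym and Evi2a to 0.919 for Lrrc25 and Spata48. Among 1499 named candidates, the genes most like them over the 6 libraries were Srsf7, a splicing factor, for Cym, Hiat1-ps1 for Lrrc25, Enpep, an aminopeptidase, for Evi2a, and Pgrmc1, a haem-binding membrane protein, for Spata48. Their r was 0.996, 0.999, 0.993 and 0.998. With the condition means taken out, the most alike were Txnrd1, a thioredoxin reductase, for Cym at 0.984, Fam76b for Lrrc25 at 0.997, Depdc7 for Evi2a at 0.991 and Snrpc-ps3 for Spata48 at 0.995. Most of these genes changed far less, such as Srsf7 with a log2 fold change of 0.97, and Snrpc-ps3 was lower in TE-RMS at -0.88. The correlations rest on the same 6 libraries that chose both the genes and the candidates, and describe likeness of pattern only. Enpep had the largest log2 fold change of the genes named for likeness, 2.73, with planar values of 0.310, 1.31 and 0.827 CPM and TE-RMS values of 1.27, 13.7 and 5.40 CPM.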

How the data were processed

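Total RNA of 6 libraries was prepared with a non-stranded kit for low input. The authors trimmed reads with fastp and quantified them with Salmon against an Ensembl transcriptome of mRatBN7.2. They deposited estimated counts, 1 value per gene and library, in whole numbers, so that rounding changed nothing. Salmon divides shared reads by probability, so counts of overlapping or similar genes depend on that division.

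A total of 10 counts over the 6 libraries was required, which 16331 of 23940 genes reached, and these were normalized by TMM and fitted with edgeR 4.0.16 in R 4.3.3 (quasi-likelihood test, run as a block, Benjamini-Hochberg adjustment over all tested genes, threshold 0.05). Log2 fold changes used a prior count of 0.125 and log2 CPM a prior count of 2. Standard errors are the log2 fold change over the square root of its F statistic. Within-run folds carry exact conditional binomial intervals at 95%. Alternatives were DESeq2 1.42.0, limma 3.58.1 (voom), other scalings, filters and prior counts, thinned counts, no block, and each run left out. The study's own fold changes and p-values, which its supplementary list also holds, were not used.

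Libraries of one run deviated together from their condition means, with correlations of 0.182 to 0.271 between same-run libraries. Between runs the correlations were -0.155 to -0.0657. Their negative sign follows from the positive same-run values, since the deviations cancel out within a condition, and adds nothing about the pairing. The study's methods draw each run from its own animals. No libraries were duplicates, as the chi-square per degree of freedom was at least 284 for each pair within a condition.

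Tested on simulated counts, the run test by edgeR recovered 64% of genes changed by 1.5 and 85% of those changed by 3 on the log2 scale, among 16385 genes. False calls made up 12.9% of its 171 calls, more than the adjusted threshold promises. The condition test by edgeR recovered 62% and 70% at the same sizes and gene number, and 14.3% of its 154 calls were false. Changed genes were drawn from those above a minimum count, and run changes were put into September alone, with no other run differences. Recovery of genes with fewer counts and of other run patterns was not tested.

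Names came only from the study's supplementary list, of which the first 1517 genes by p-value were at hand, 1503 with a symbol. RefSeq promoter windows and gene order are of GRCr8. The named genes are the 4, the paired members of the marker and pathway lists, and the nearest genes by correlation. Some genes of these lists are not reported here and were taken out of their counts, medians and sums. Genes and lists were chosen with earlier results of these data known.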

Additional observations from a re-analysis of the deposited data

How the results depend on the processing

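The log2 fold changes of the 4 genes kept their sign under every alternative run. That of Cym was 6.12 with a prior count of 2 and ran from 7.86 to 9.50 with 1 run left out, the highest without September, where the remaining planar libraries have 0 counts, so its size rests on the prior count. The replicate block (run) mattered to the background. Without it 708 genes were higher and 733 lower in TE-RMS, against 1528 and 1516 with it. With 1 run left out, 956 (without October) to 1622 (without July) genes were lower and 1046 to 1588 higher. Genes that differed between runs numbered 525, against 1245 by DESeq2 and 224 with at least 10 counts in at least 3 libraries, where fewer genes were tested, and 366 to 746 with 1 run left out.

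The run difference of Spata48, at an adjusted p of 0.0523 by edgeR, passed the threshold by DESeq2 (0.00231), by limma-voom (0.0129), with upper-quartile scaling by edgeR (0.0402), with no filter on low counts (0.0237) and with thinned counts (0.0455), but not with RLE size factors (0.0505) or with at least 10 counts in at least 3 libraries (0.13). With 1 run left out it ranged from 0.019 without July to 0.795 without September by edgeR, and was 0.034 without October. The cause was not tested. Each list was also counted with 1 run left out, an alternative added after the data were seen. The neuronal list went from 2 higher calls to 1 without September, the oligodendrocyte list from 2 lower calls to 1 without July, and the sperm and axoneme list from 2 lower calls to 1 without October. The interferon list went from 6 higher calls to 4 and the lysosomal list from 11 to 10 (Lipa) without October, and the fibroblast list from 7 lower calls to 6 (Thy1) without September and without October. The genes that lost their call kept the direction of their difference. Planar libraries hold at most 3 counts of Cym and 13 of Lrrc25, which leaves wide counting intervals on their folds.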
